A study of Homo sapiens with 21 samples.

Results

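Cytoplasmic ribosomal proteins are the protein part of the ribosome of the cytosol, and their mRNAs are among the most abundant of a growing cell. The genes studied here carry names of the form RPL or RPS with a number, or the names RPLP0, RPLP1, RPLP2 and RPSA. Pseudogenes and the RPS6K kinases were left out. RefSeq lists 83 protein-coding genes with such names, and 79 of them had at least 1 crosslinked cluster in the 15 libraries used. Most of these genes are short, hold several introns and start transcription at a C followed by a run of pyrimidines, the 5′ terminal oligopyrimidine (TOP) element, through which their translation follows growth signals. Several host small nucleolar RNAs in their introns, and processed pseudogene copies of them are scattered over the genome.

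The series tested a PAR-CLIP protocol that uses no radioactivity. PAR-CLIP feeds cells 4-thiouridine, crosslinks it to bound protein with UV light, and sequences the RNA that comes down with that protein, with T-to-C changes marking the contact. All libraries came from Flp-In T-REx 293 cells, an established human kidney-derived line with a stably integrated FLAG-HA tagged copy of the protein. Cells received 100 µM 4-thiouridine for 8 to 12 h and 0.3 J/cm2 of light at 312 or 365 nm; U2AF1 cells received 250 µM for 2 h, and for this chromatin-associated protein the nuclei were taken. The fluorescent libraries were of AGO2 with RNase I at 0.15 and 1.5 U/µl, CPSF1 with RNase I at 0.5 U/µl, FUBP3 and KHSRP with RNase I at 0.15, 0.5 and 1.5 U/µl, and U2AF1 with RNase A and T1 at 1.5 and 15 U/ml. The older protocol gave 4 AGO2 libraries with RNase T1 at 1 U/µl. A urea gel was used for 2 of them and left out for the other two, and each pair is named A and B.

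AGO2 carries microRNAs to their target mRNAs. CPSF1 is the large subunit of the complex that recognises the polyadenylation signal, U2AF1 binds the AG at the 3′ end of introns, and FUBP3 and KHSRP are KH-domain relatives that bind U- and G-rich RNA. The tagged proteins crosslinked to RNA, so a read count here is a measure of contact and abundance together and not an expression level.

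Libraries held between 2305 and 180358 clusters and between 75383 and 2172248 reads in clusters. The smallest cluster held 5 reads, or 4 in the U2AF1 libraries, and reads outside clusters were not analysed here. As a check of the labels, microRNA genes took 31.5% to 57.4% of the reads in the 6 AGO2 libraries and 0.0850% to 5.26% in the others. The AGO2 gel libraries use coordinates of another build than hg38: 7.77% of their ribosomal protein clusters lay inside the RefSeq span of the named gene, against 94.6% of the 2004 such clusters in the 11 fluorescent libraries. Their coordinates are not used, and the 1 site shown from them was placed on hg38 by its sequence. Only the gel comparison had more than 1 library per condition, so all other differences have no replicate check, and their intervals (95%, Wilson) cover counting error only.

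The sequences that carry the main patterns are shown first. The AGO2 site with most reads lay in the coding region of RPS14, a protein of the small subunit. It is given as the shortest AGO2 cluster there, that of urea gel library B, whose sequence lies within the fluorescent cluster at 0.15 U/µl, at hg38 chr5:150446885-150446910 on the minus strand, with the 7 bases that pair with the seed (bases 2 to 8) of miR-15/16 in capitals. Below it stand the mature microRNAs from RefSeq (GRCh38.p14) that share a seed match there, with the seed in capitals.
RPS14 coding site: aatcctcaccataTGCTGCTatgttg
hsa-miR-16-5p: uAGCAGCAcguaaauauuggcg
hsa-miR-103a-3p: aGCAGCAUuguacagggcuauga
The seed match is at chr5:150446891-150446897 and is followed by an A. The match to the miR-103a seed overlaps it, shifted by a single base.

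U2AF1 clusters marked as 3′ splice sites in the deposited files show the end of an intron, with the AG that follows a run of at least 5 C or T in capitals. The first is RPL23A at chr17:28723847-28723876, then RPS19 at chr19:41860758-41860784 and RPS3A at chr4:151104462-151104481, all on the plus strand of hg38.
RPL23A: ggctcccttttgtttttcAGattgggatca
RPS19: ttgactttctccctcAGatgcctggag
RPS3A: tgccttttAGtgggaaagct

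Among the CPSF1 clusters with most reads were those at the 5′ end of RPLP1 (chr15:69452826-69452855, plus strand) and in the 3′ UTRs of RPL38 (chr17:74209856-74209885, plus strand) and RPS2 (chr16:1962053-1962082, minus strand). Each is cut to 30 bases around the modal position given in the deposited file, and capitals mark the polyadenylation signal AATAAA where it is present.
RPLP1: ctcagctgccgccaaggtgctcggtccttc
RPL38: tatattaaaatactaaaaatcctaagtgtc
RPS2: aaAATAAAgtgaattaagcgtgttactgtt

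For FUBP3 and KHSRP the 30 bases around the same modal position are shown for leading sites of each, with TTGT or TGTA in capitals where present. The FUBP3 stretches are from the 3′ UTRs of RPL15 (chr3:23919682-23919711) and RPL13 (chr16:89563279-89563308), and the KHSRP stretches from RPS24 (chr10:78040360-78040389, plus strand) and an intron of RPS16 (chr19:39434550-39434579, minus strand).
RPL15: ataagataaacttttTTGTctttgctttat
RPL13: tacagaggctgacttcagagtggacTTGTg
RPS24: taaaatactaacagtgacatggttTTGTtt
RPS16: acaggtgtgatcaccatgcctggcctagaa

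Transcript starts from the RefSeq promoter table (GRCh38.p14) show the TOP element of RPLP1 (chr15:69452813-69452837, plus strand) and RPS14 (chr5:150449720-150449744, minus strand), with the pyrimidine run from the first transcribed base in capitals.
RPLP1 start: gagagCCCCTTTCCTCagctgccgc
RPS14 start: ccactCTCTCTTTCCggtgtggagt
Of the 66 ribosomal protein genes with an entry, 47 (71.2%, interval 59.4% to 80.7%) had a C followed by at least 4 C or T at a listed start, against 5.14% of 27305 genes in the table and 6 of 69 mitochondrial ribosomal protein genes (8.70%).

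The share of all reads in clusters that fell on ribosomal protein mRNAs was highest for U2AF1 and lowest in the fluorescent AGO2 and the FUBP3 libraries. It was 1.66% and 1.23% for U2AF1 at the lower and the higher dose, and 0.734% for CPSF1. With clusters of at least 10 reads CPSF1 had 1.17%, and with joined gene names counted U2AF1 had 1.96% at the higher dose. KHSRP had 0.450%, 0.391% and 0.428% in order of rising dose, and FUBP3 had 0.201%, 0.211% and 0.187%. The 2 fluorescent AGO2 libraries had 0.230% and 0.146%. The 4 older AGO2 libraries were higher, at 0.541% and 0.494% (no gel) and at 0.505% and 0.463% (urea gel). The intervals of the 3 KHSRP libraries did not overlap those of the FUBP3 libraries. U2AF1 differed from the rest in labelling, RNase and the cell fraction taken, so protein and protocol cannot be told apart there. The fluorescent and the older AGO2 libraries likewise differ in both RNase and protocol.

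**Figure D1:**
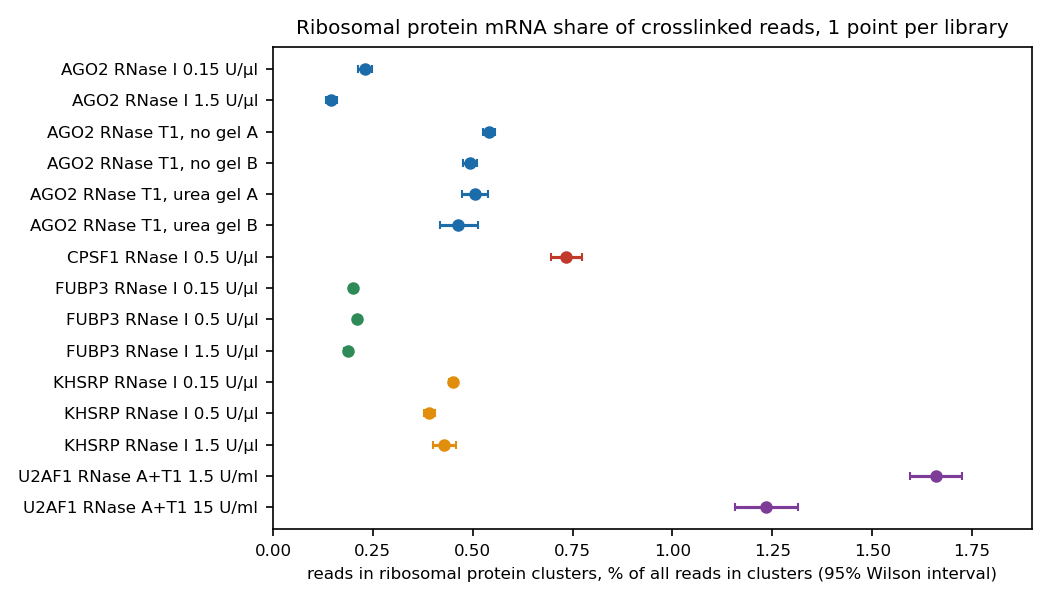
Reads in ribosomal protein clusters as a percentage of all reads in clusters (x axis), 1 point per library with its 95% Wilson interval, coloured by protein. The 2 U2AF1 libraries sit at 1.66% and 1.23%, above all others, and the 3 FUBP3 libraries sit near 0.2%, from 0.187% to 0.211%.

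Of the 83 genes, 33 had a cluster with all 5 proteins, 22 with 4, 17 with 3, 2 with 2 and 5 with 1. KHSRP touched 72, FUBP3 69, AGO2 64, and CPSF1 and U2AF1 54 each. The same counts were not made over all 18273 genes named in the libraries, so they cannot set these genes apart from others. The 33 include RPL10A, RPL11, RPL13A, RPL14, RPL18, RPL22, RPL23A, RPL26, RPL27, RPL32, RPL36, RPL37, RPL37A, RPL38, RPL5, RPL6, RPL7, RPL8, RPLP0, RPLP2, RPS10, RPS14, RPS16, RPS19, RPS2, RPS23, RPS24, RPS3, RPS4X, RPS6, RPS7 and RPSA. RPS4X, the X-linked form of a small-subunit protein, was the 1 gene with a cluster in all 15 libraries. The 4 genes with none include RPL10L and the Y-linked RPS4Y1 and RPS4Y2. Large-subunit genes (49 names) took more of the reads than small-subunit genes (34 names) for FUBP3, KHSRP, CPSF1 and U2AF1. For FUBP3 at 0.5 U/µl the shares were 0.145% and 0.0665%, and RPL15 alone held 0.0422%. The order turned in the older AGO2 libraries, where the small subunit had 0.303% to 0.324% and the large 0.160% to 0.217%. RPS14 alone held 0.207% to 0.227% there.

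Where in the gene the clusters lay followed the protein. AGO2 contacts were mostly in mature mRNA: 64.4% and 60.5% of ribosomal protein clusters in the fluorescent libraries were coding, against 21.9% and 18.8% of all clusters with a gene name. In the older AGO2 libraries 38.9% to 44.8% were coding, against 17.2% to 25.0% of all, while 33.3% to 38.9% lay in 3′ UTRs, against 50.5% to 61.3% of all. The 2 libraries with the gel are small, with 42 and 18 ribosomal protein clusters.

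By number, FUBP3 and KHSRP clusters were mainly intronic. Many rest on few distinct read sequences. In order of rising dose, 19.3%, 17.9% and 8.70% of the FUBP3 clusters on ribosomal protein genes held at least 3, against 12.5%, 11.8% and 6.73% of all. For KHSRP these were 84.4%, 66.1% and 25.2%, against 64.1%, 48.0% and 13.9% of all, so cluster shares of the 2 proteins are unlike in this respect. For FUBP3 58.8%, 64.3% and 60.1% of the ribosomal protein clusters lay in introns in order of rising dose, against 70.9%, 70.5% and 69.0% of all. Over clusters of at least 10 reads the FUBP3 share in introns at 0.15 U/µl was 43.2%, below the 49.4% in 3′ UTRs, and over all genes the shares were 47.1% and 45.7%. By reads, 3′ UTRs held 51.8%, 47.8% and 41.9% of FUBP3 contacts on these genes and introns 38.9%, 38.1% and 46.6%. Over all genes 3′ UTRs held 40.1%, 39.8% and 33.2% of the reads and introns 51.6%, 51.2% and 58.5%. RPL15 alone gave 743 of the 1756, 834 of the 1996 and 274 of the 635 ribosomal protein reads in 3′ UTRs. KHSRP had 68.9%, 71.2% and 69.9% of its ribosomal protein clusters in introns, against 84.2%, 83.4% and 80.2% of all. KHSRP clusters in 3′ UTRs made up 22.2%, 22.6% and 18.4%, against 9.22%, 9.86% and 9.62% of all, and the intervals of these pairs did not overlap. Over clusters of at least 10 reads the contrast was lost at 1.5 U/µl, with 18.2% (7.31% to 38.5%) against 18.6% of all in 3′ UTRs and 68.2% against 67.7% in introns. Ribosomal protein genes span a median of 5035 nt in RefSeq, against 24092.5 nt over all protein-coding genes; the part of intron length in these shares was not tested.

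CPSF1 clusters on ribosomal protein genes were 46.5% intronic (interval 37.6% to 55.6%), against 75.9% of all, and 25.4% lay in 3′ UTRs, against 11.2%. A further 8.77% (4.83% to 15.4%) lay in 5′ UTRs, against 1.15% of all. Only 22 of the 114 CPSF1 clusters on ribosomal protein genes (19.3%) held at least 3 distinct read sequences, against 4.84% of all CPSF1 clusters. For U2AF1, coding clusters made up 34.9% and 48.0% at the 2 doses, against 19.7% and 28.4% of all. Intronic clusters made up 12.3% and 4.00%, against 38.7% and 28.1%. The ribosomal protein shares leave out 45 and 26 clusters with joined gene names, while the shares of all keep such clusters. The part of this in the contrast was not tested.

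**Figure D2:**
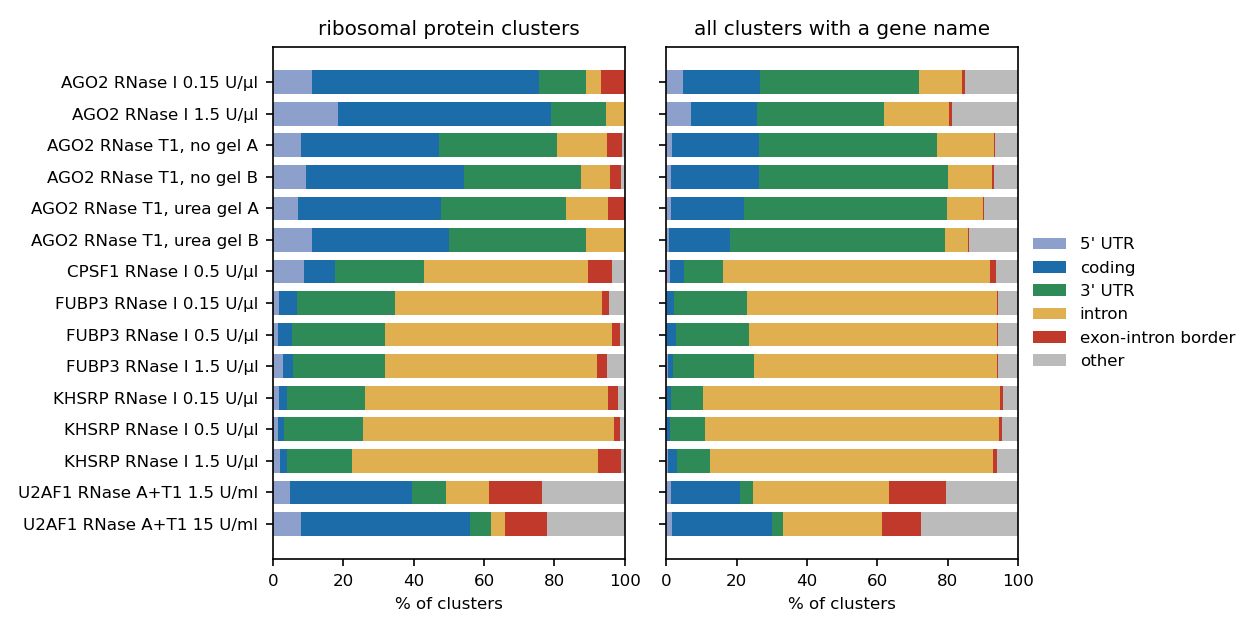
Stacked bars give the percentage of clusters (x axis) in each deposited region class for the 15 libraries, on the left for ribosomal protein genes and on the right for all clusters with a gene name. AGO2 bars on the left hold 38.9% to 64.4% coding clusters, tied with 3′ UTRs at 38.9% in urea gel library B, and FUBP3 and KHSRP bars are led by introns (58.8% to 71.2%).

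In the 4 older AGO2 libraries RPS14 led this gene family. The gene had 1924 and 1381 reads in the libraries with no gel, 393 and 170 in those with one, and 65 and 39 in the fluorescent libraries at 0.15 and 1.5 U/µl. The cluster over the seed match held 1875, 1370, 393 and 170 reads in the 4 older libraries, which was 37.3% to 47.4% of all their ribosomal protein reads. It was built from 397, 459, 169 and 112 distinct read sequences. Among coding clusters it ranked in place 2, 2, 2 and 1, and among all clusters outside microRNA genes in place 12, 14, 15 and 20.

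At the same site the fluorescent libraries held 65 and 31 reads (57 and 25 distinct), 9.53% and 6.34% of their ribosomal protein reads, and it ranked in place 25 and 40 among coding clusters. Other genes led there: RPLP1 with 98 reads (14.4%) at 0.15 U/µl and RPS16 with 80 reads (16.4%) at 1.5 U/µl. Of the reads of this cluster 76.9% to 83.7% carried a T-to-C change in the older libraries, and 52.3% and 51.6% in the fluorescent ones. The clusters of all 6 libraries covered the 7 bases. No CPSF1, FUBP3, KHSRP or U2AF1 cluster covered them, although U2AF1 at 15 U/ml had clusters of 18 and 24 reads on either side and KHSRP at 0.15 U/µl 1 of 7 reads upstream.

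**Figure D3:**
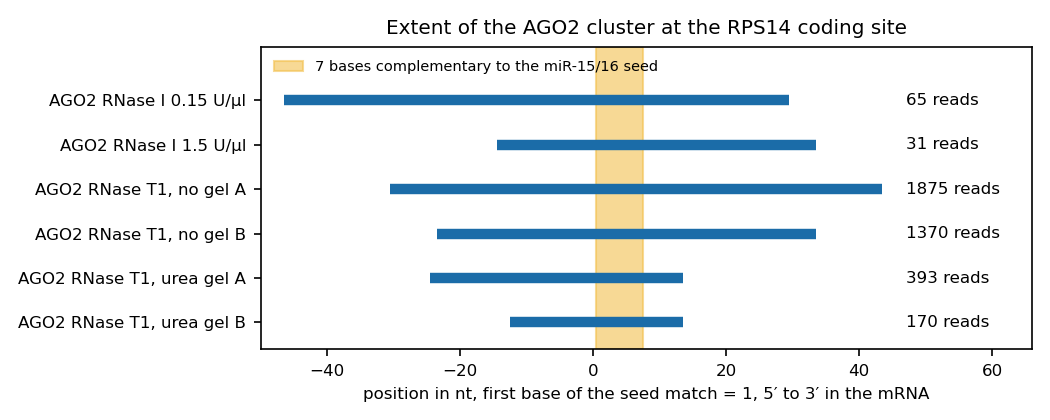
Horizontal bars show the extent of the AGO2 cluster at the RPS14 coding site in each of the 6 AGO2 libraries, in nt along the mRNA with the first base of the seed match at 1, and the number of reads beside each. All bars cross the shaded 7 bases, and the shortest, in urea gel library B, is 26 nt long with 170 reads.

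Seed matches were searched for 16 microRNA families as the 7 bases complementary to positions 2 to 8, in the transcript strand of each cluster. Few other ribosomal protein clusters held one. In the older AGO2 libraries 4.17% to 7.14% of ribosomal protein clusters did, against 11.8% to 31.7% of all clusters with a gene name outside microRNA genes. The fluorescent libraries gave 13.3% (6 of 45) and 10.5% (4 of 38), against 25.7% and 19.2%. By reads the share was higher, 40.7% to 48.1% in the older libraries, with RPS14 carrying most of it, against 24.7% to 32.3% over all clusters. In the fluorescent libraries it was 18.0% and 13.1%, against 6.81% and 5.28%. By reads the direction against all clusters was thus the opposite of that by clusters. In the fluorescent libraries this held in coding clusters (18.2% and 14.5% against 11.3% and 7.05%) and not in 3′ UTRs (29.0% and 21.1% against 38.3% and 33.0%). The coding excess rests largely on RPS14 there too, whose 1 cluster gave 65 of the 88 and 31 of the 49 coding reads with a match. The coding shares without RPS14 were not computed. Clusters outside the mRNA and intron classes held 81.7% and 83.7% of all named reads there, microRNA genes counted. They held 0% of the ribosomal protein reads.

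The next such site was in the 3′ UTR of RPL15, a large-subunit protein, with a miR-19 seed match in clusters of 76 reads (no gel A), 37 (no gel B) and 14 (fluorescent, 0.15 U/µl). RPL38 had a miR-15/16 match at an exon-intron border with 32, 26 and 6 reads, and RPL13 a miR-17 match in its 3′ UTR with 15 reads in both fluorescent libraries. These matches are letters in a window and say nothing of which microRNA was bound.

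The gel comparison asked whether a urea gel purification step changes what is recovered. Ribosomal protein mRNAs took 0.517% ± 0.0332 (SD, n = 2) of the reads without the gel and 0.484% ± 0.0297 (SD, n = 2) with it, a difference of -0.0336 percentage points that is close to the SD of each pair. The exact permutation test (2-sided) gave p = 0.667, where 2 against 2 libraries cannot go below 0.333. Without RPS14 the shares were 0.300% and 0.267%.

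Gene by gene, 1121 genes had a cluster in all 4 libraries and a sum of at least 10 reads, and edgeR's quasi-likelihood test called 3 of them (0.268%) at an adjusted p under 0.05. Of the 83 ribosomal protein genes 11 could be tested and 0 were called, and 0 had an unadjusted p under 0.05, both with edgeR and with DESeq2. The other 72 lacked a cluster in at least 1 library or fell under 10 reads. Over all genes 149 had an unadjusted p under 0.05 with edgeR and 97 with DESeq2, which called 2. The median log2 difference, gel over no gel, was 0.44 over the 11 and -0.01 over all genes, and 9 of the 11 were above 0. These are the genes with a cluster in all 4 libraries. Among genes with any read in at least 2 of them the median was -0.46 over 45 ribosomal protein genes, 17 above 0, and -1.76 over all 6514. The sign of the ribosomal protein median thus turns with the filter, while it lies above the median of all genes under both.

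RPS14 was level, with 2302 and 2520 reads per 1e6 (CPM, TMM-scaled) (no gel) and 2554 and 2239 (urea gel), a log2 difference of -0.01 ± 0.22 (SE). RPS4X had 488, 372, 474 and 619 in the same order, mostly from its 3′ UTR (82.9% of its reads), and RPL15 had 372, 391, 396 and 435, all from its 3′ UTR. The groups overlapped for RPS14 and RPS4X, and for RPL15 they lay next to each other without overlap. RPL5, which carries 5S rRNA into the ribosome, had 529 in library A without the gel and 94.9, 91.0 and 158 in the others. That high value rests on an exon-intron border cluster of 283 reads with 6 distinct sequences. The log2 difference of RPL5 was -1.40 ± 0.82 (SE), and 0.32 without that library.

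RPL18 was high in 1 gel library only, with 75.4 and 146 (no gel) against 370 and 79.0 (urea gel). Stalk protein genes RPLP2 and RPLP0 were at 53.9 and 65.7 against 84.5 and 158, and at 102.9 and 91.2 against 182 and 105. Both gel libraries lay above both others for these 2 genes and also for RPL15, RPL13A, RPL23 and RPL35A. Some margins were very small: the nearest libraries without and with the gel were at 131.62 and 131.69 for RPL13A. They were at 102.91 and 105.35 for RPLP0 and at 390.51 and 396.47 for RPL15. No such count was made over all 1121 genes, so this order cannot set these genes apart. To pass the filter, a gene had to hold a cluster in each library. For RPL6, 5 reads were 65.85 CPM in gel library B, and 6 reads were 7.18 in library A without the gel. With a matched cluster minimum 4 ribosomal protein genes remained, 2 of them above 0, with a median log2 difference of 0.03. The part of the filter in this order was not tested. For RPLP2 and RPLP0 the adjusted p-values from edgeR were 0.454, the smallest of the 11, and 0.567.

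The 10 members with most reads over the 4 libraries also included RPS29, RPL28 and RPL8, each with 0 reads in gel library B and so not tested, and RPL23 and RPL13A. Reads of RPL23, RPL28 and RPL8 were 96.1% to 97.3% coding, whereas those of RPL13A were 97.2% and those of RPS29 83.8% in the 3′ UTR.

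**Figure D4:**
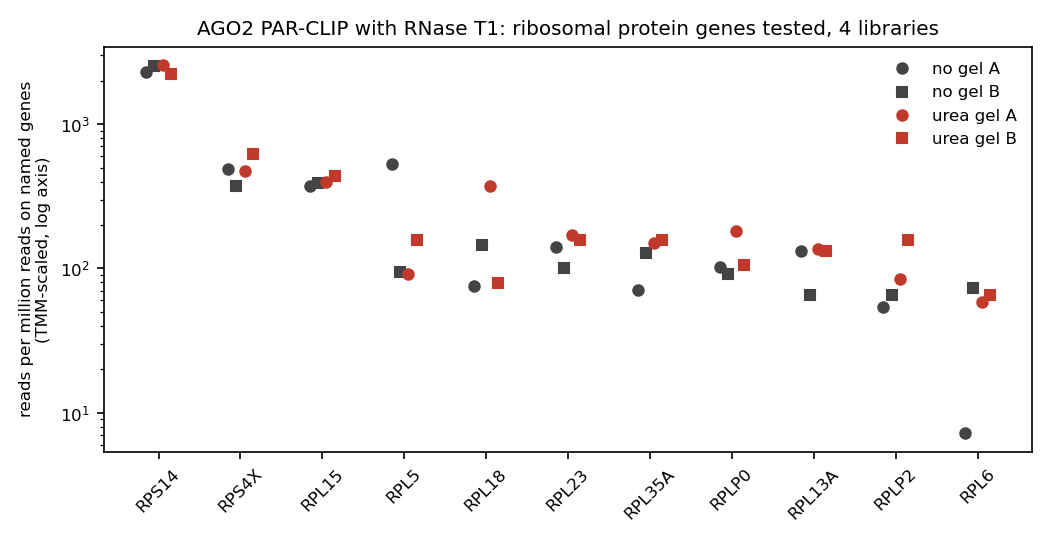
TMM-scaled CPM (log axis) for the 11 ribosomal protein genes tested, 1 point per library, circles for replicate A and squares for B, grey without the gel and red with it. RPS14 lies between 2239 and 2554 in all 4 libraries, while RPL5 has 1 high library without the gel (529).

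FUBP3 contacts were led by a single 3′ UTR. RPL15 had 748, 834 and 293 reads in order of rising dose, 19.4% to 22.1% of all ribosomal protein reads of those libraries, and 93.5% to 100% of them lay in its 3′ UTR. The main site, at chr3:23919682-23919788 over all libraries, held 498, 467 and 206 FUBP3 reads and 66 KHSRP reads. A second RPL15 site, at chr3:23920769-23920836, followed. RPL13, a large-subunit protein, had 166, 245 and 54 reads, 85.2% to 100% of them in the 3′ UTR. RPS24 (185, 295 and 71), RPL37A (121, 251 and 47) and RPL37 (107 and 83 at the 2 higher doses) completed the leading 5. Of the RPL37A reads 18, 109 and 21 lay inside the RefSeq span of the gene, so its place among the leading 5 rests on reads outside it.

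KHSRP contacts were led by RPS24, a small-subunit protein whose mRNA is alternatively spliced at its 3′ end. It had 1332, 552 and 157 reads in the same order of doses, that is 0.0613%, 0.0610% and 0.0784% of all reads. At the 2 higher doses 97.6% and 92.4% of them were intronic. At 0.15 U/µl, 453 of the 1332 lay in a 353 nt cluster that the deposited file classes as coding (chr10:78040200-78040552), a stretch that at 0.5 U/µl was split into clusters classed as intron. RPL5 (496, 221 and 83), RPL37A (573, 126 and 76), RPL6 (483, 144 and 12) and RPS16 (304, 141 and 48) followed, with 85.5% to 100% of the reads of RPL5, RPL6 and RPS16 in introns.

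Gene length bears on these orders. Per kb of RefSeq span, RPL15 stayed first for FUBP3 with a mean share of 0.00506% per kb, whereas for KHSRP RPS16 came first with 0.00634% per kb and RPS24, at 0.00292%, fell to place 5.

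FUBP3 and KHSRP can be set side by side at 3 matched doses, with 1 library each and so with no test. Of 3563 genes that reached 10 reads in all 6 libraries, FUBP3 had the larger share at every dose for 27.1% and KHSRP for 29.6%. Of the 14 ribosomal protein genes that reached this minimum, 1 was higher for FUBP3 at every dose, 9 were higher for KHSRP and 4 were mixed. Their median of the mean log2 ratio, FUBP3 over KHSRP, was -1.28, and that of all genes 0.02. The other 69 genes did not reach the minimum, so the counts describe 14 well-covered genes. The minimum is in reads, and KHSRP at 1.5 U/µl had the fewest, 200210 against 810326 for FUBP3 at that dose. A low KHSRP share thus makes a gene fall out more readily. RPL32 (0 KHSRP reads there), higher for FUBP3 at all doses, and RPL31 (5 reads), higher for KHSRP at all doses, both fell out. The genes lost on each side were not counted, and the part of the minimum in the split was not tested.

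Among these 14, RPL15 was the 1 gene on the FUBP3 side, with log2 ratios of 2.08, 4.12 and 1.86. On the KHSRP side RPL6 had -3.69, -3.39 and -0.96, RPS24 had -2.48, -2.03 and -3.16, and RPS16 had -3.07, -2.24 and -1.77. RPL5 was at -2.14, -2.44 and -2.13. RPL37A followed with -1.88, -0.13 and -2.71. RPL15 was read by FUBP3 almost wholly in the 3′ UTR (98.7% of reads over the 3 doses), where KHSRP had 43.2% of its RPL15 reads. RPL6 was intronic for both proteins (100% and 98.9%).

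The RPL37A name covers more than the gene: 64 of its 105 clusters in the fluorescent libraries, with 636 of 1281 reads, lay past the RefSeq 3′ end, up to 75098 nt away. Inside the span its ratios were -3.70, -0.22 and -3.41.

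**Figure D5:**
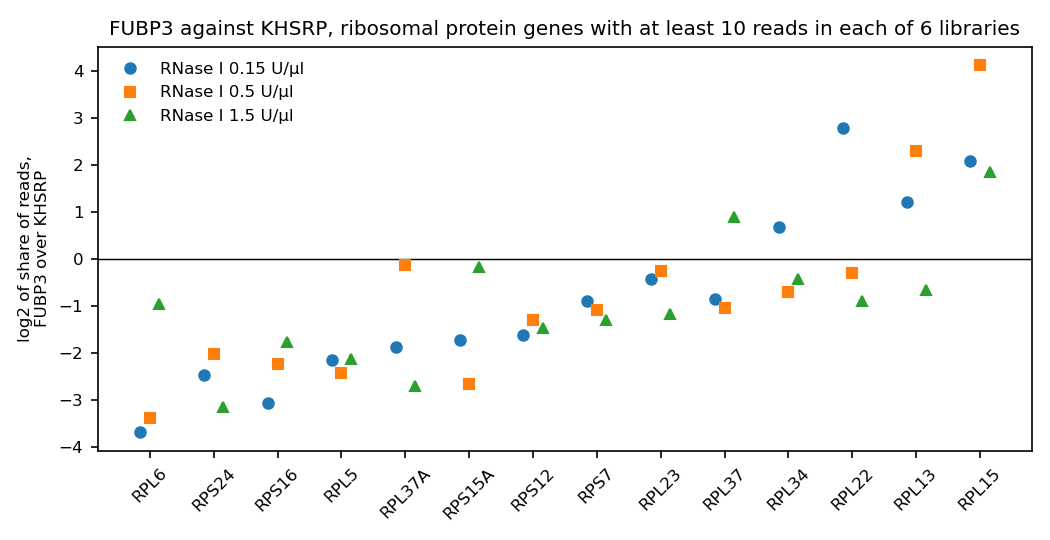
Log2 of the share of reads, FUBP3 over KHSRP (y axis), at 3 RNase I doses for the 14 ribosomal protein genes that reached 10 reads in all 6 libraries, ordered by the mean. RPL15 lies above 0 at all doses (1.86 to 4.12), and 9 genes from RPL6 to RPL23 lie below 0 at all doses.

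The letters TTGT were searched on the transcript strand. Among intronic KHSRP clusters at 0.15 U/µl, 36.2% of those on ribosomal protein genes and 37.9% of all held TTGT, and for FUBP3 the shares were 36.0% and 35.0%. The word TGTA, which can overlap TTGT, was in 31.2% and 34.2% of the same KHSRP clusters.

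The CPSF1 cluster with most reads sat near the 5′ start of its gene. RPLP1, a stalk protein, led with 213 reads, 190 of them in the 5′ UTR cluster whose first base is 8 nt downstream of the RefSeq start, inside the TOP run shown above. T-to-C changes were in 15.2% of the reads of that cluster, against a median of 100% over all CPSF1 clusters. RPS19 had 56 reads, 41.1% of them intronic and 58.9% in the 3′ UTR. RPL27 and RPS4X had 53 each, with 81.1% and 41.5% of their reads coding. The 3′ UTR clusters of RPL38 and RPS2 shown above held 27 and 23 reads. Per kb of span RPLP1 stayed first, with 0.0348% per kb.

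Of the 114 CPSF1 clusters on ribosomal protein genes, 12 on 11 genes (10.5%, interval 6.12% to 17.5%) lay within 100 nt of the RefSeq 3′ end, against 3.26% of all. Within 100 nt of the 5′ start lay 5 of 114 (4.39%, 1.89% to 9.86%), against 0.860% of all. Of the 29 in 3′ UTRs 8 held AATAAA (27.6%), and of all CPSF1 3′ UTR clusters 26.1%. The part of gene length in the 2 end shares was not tested.

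U2AF1 contacts on these genes were at splice sites and in exons. RPL5 had 132 and 124 reads at 1.5 and 15 U/ml, 132 and 104 of them in 1 cluster at an exon-intron border (chr1:92840539-92840564). RPL23A had a cluster of 154 reads and RPS19 1 of 77, both at 3′ splice sites. RPS16 (194 and 53 reads) and RPL3 (113 and 120) were mainly coding, with 90.7% and 85.0% of their reads at the lower dose, and RPS24 had 70 and 85 reads. The main RPS16 cluster, of 152 reads, is at chr19:39433397-39433429.

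At 1.5 U/ml 12 of 106 ribosomal protein clusters on 11 genes were marked as 3′ splice sites (11.3%, interval 6.60% to 18.8%), against 7.80% of all, a difference within counting error. They held 30.6% of the ribosomal protein reads, and over all genes such clusters held 15.3%. The values over all genes count joined gene names. With joined names counted for ribosomal protein genes too, 12 of 151 clusters (7.95%) were so marked, with 20.9% of the reads. At 15 U/ml there were 2 of 50 (4.00%), against 5.28%. A run of at least 5 C or T followed by AG was in 17.0% of ribosomal protein clusters and 17.7% of all at the lower dose.

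Across the 11 fluorescent libraries, which held from 2374 to 180358 clusters each, the ribosomal protein clusters merged into 1429 sites. The same merging was not done over all genes, so the counts cannot set these genes apart. Of the sites, 1083 (75.8%) were seen in 1 library and 13 in at least 5. The most shared was in RPS24, at chr10:78040074-78040552, in 7 libraries: KHSRP had 507, 238 and 27 reads as the dose rose, FUBP3 58 and 47 at the 2 lower doses, and U2AF1 21 and 48. An intronic RPS16 site, at chr19:39434432-39434590, was in 6 libraries, with 236, 111 and 13 KHSRP reads, 47 and 9 FUBP3 reads at the 2 higher doses, and 6 CPSF1 reads. A 3′ UTR site of RPL37A, at chr2:216501441-216501547, was in 5.

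RNase dose was compared with 1 library at each dose and so with no test. For genes with at least 10 reads at each dose, the median log2 ratio of the lowest over the highest dose was -0.53 over 21 ribosomal protein genes and -0.24 over 3728 genes for KHSRP, and -0.20 over 29 and -0.11 over 7035 for FUBP3. For U2AF1 it was -0.20 over 19 and -0.29 over 509, and for AGO2 0.73 over 10 and 0.14 over 485. The widest ratios were those of RPL36A for KHSRP, at -3.26, and RPL15 for U2AF1, at -2.55. T-to-C changes were in a median of 57.1% and 65.5% of the reads of ribosomal protein clusters in the fluorescent AGO2 libraries, against 80.0% and 77.8% over all clusters there.

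Related genes were read for context. Of 25 names of other TOP mRNAs, translation factors among them (RACK1 stands under 2 names), 23 had AGO2 clusters, led by EEF2 and HNRNPA1 with 1101 and 747 reads, and 52.1% of these clusters were coding. KHSRP took 0.432% to 0.617% of its reads from the same list, led by NAP1L1 with 5160 reads. Ribosome assembly factors (31 genes) had clusters for 28 with AGO2, FUBP3 and KHSRP each, led by TSR1, NCL and HEATR1. Mitochondrial ribosomal proteins, nuclear-encoded genes of the other ribosome, took 0.292% to 0.318% of FUBP3 reads, above the 0.187% to 0.211% of the cytoplasmic set, and 0.0326% and 0.0730% of U2AF1 reads, below its 1.23% to 1.66%.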

How the data were processed

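Per the submitters' processing notes, bcl2fastq 2.20.0, cutadapt 1.15 and hg38 were used; which aligner, caller and annotation were used, and how reads matching several gene copies were treated, is not given in the sources used here. Each deposited file lists the clusters of 1 library with raw counts of reads and of distinct sequences, and a T-to-C fraction computed by the authors per cluster. U2AF1 files give no distinct sequences, and their conversion fraction was not used here. RNase T1 libraries of FUBP3 and KHSRP and 4 samples of the series were not analysed here.

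Members were matched by name, reads summed per gene, and shares taken over all reads in clusters, which stand for depth. Clusters with several gene names, found in U2AF1 alone, were left out of the members and kept in the values over all genes. The members and lists were chosen with earlier results of these data known. The gel comparison used edgeR 4.0.16 (quasi-likelihood, TMM, Benjamini-Hochberg over all genes tested, R 4.3.3) and DESeq2 1.42.0 as the alternative; the script was tested on simulated data. Nothing says that libraries A and B came from separate cultures, so p-values measure the spread between these libraries, which may be technical. Other comparisons have 1 library per condition and Wilson intervals (95%, scipy 1.17.1). Reads are not independent molecules, so intervals cover counting error only. Named genes were those with most reads over the gel libraries (10), the largest mean share per protein (5), the widest ratios between FUBP3 and KHSRP, and clusters in all or no proteins; RPL36A, RPL35A and clusters with seed matches were named after their values were seen. A few items that this rule names are not reported here. RefSeq (GRCh38.p14) gave spans, starts and microRNAs. On hg38, 100% of 1606 clusters of 63 genes lay on the RefSeq strand. Numbers of clusters are limited by the 5-read minimum, so a gene without a cluster may still have had reads.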

Additional observations from a re-analysis of the deposited data

How the results depend on the processing

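In the gel comparison the count of genes called, 3 in the reported analysis, was 2 with DESeq2, 3 with the replicate letter as a replicate block, 1 when genes with any read in at least 2 of the 4 libraries were tested, 19 with distinct read sequences and 0 with a matched cluster minimum (494 genes tested). The wider filter tested 45 ribosomal protein genes, of which 13 had an unadjusted p under 0.05, beside 2536 of all 6514 genes; the smallest adjusted p was 0.126. Leaving out 1 library gave 0 to 15. No ribosomal protein gene was called under any of these except RPL10A without no gel library B (log2 3.68). RPL10A had 7, 0, 18 and 8 reads and so missed the main filter, which asks for a cluster in each library. The wider filter tested it with all 4 libraries and did not call it. Letters A and B share only a name: the correlation of same-letter deviations was -0.01, and the block changed no call among ribosomal protein genes. The difference in their share of reads, gel minus no gel, was -0.0336 percentage points and kept its sign in every setting run, from -0.0837 with a matched minimum to -0.0101 without no gel library A. Some uncalled differences changed sign: RPL15 at -0.059 with the wider filter and -0.183 with the matched minimum, RPL35A at -0.276 and RPS14 at 0.135 with distinct sequences. With 1 library left out, RPL5 ran from -2.15 to 0.324, RPL6 from -0.259 to 3.02, RPS14 from -0.182 to 0.045, RPL18 from -0.551 to 1.63 and RPL15 from -0.054 to 0.141; the cause was not tested.

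With reads of named clusters as the denominator, the shares of reads on ribosomal protein genes were 0.311% and 0.193% (AGO2 fluorescent), 0.605%, 0.549% and 0.556% (older AGO2, no gel A, B and gel A), 0.855% (CPSF1), 0.217%, 0.227% and 0.204% (FUBP3), 0.471%, 0.412% and 0.469% (KHSRP), and 2.204% and 1.62% (U2AF1). Counting joined names gave 2.43% and 1.96% for U2AF1. With clusters of at least 10 reads the shares were 0.196% and 0.109%, 0.599% and 0.519% (no gel), 1.17%, 0.239%, 0.256% and 0.207%, 0.562%, 0.503% and 0.636%, and 1.84% (U2AF1, 1.5 U/ml).

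With that minimum 26 of 45 region shares stayed within their interval. Those that did not were introns at 6.58% in no gel A, 0% in gel B, 32.4% for CPSF1, 43.2%, 44.3% and 49.0% for FUBP3 and 0% in both U2AF1 libraries. For 3′ UTRs they were 71.4% in gel B, 40.5% for CPSF1 and 49.4%, 39.2% and 35.3% for FUBP3. For coding they were 16.2% for CPSF1, 9.28% for FUBP3 at 0.5 U/µl, 1.27% and 0% for KHSRP at 0.15 and 1.5 U/µl, and 50.7% and 61.5% for U2AF1. Over all genes at that minimum, introns held 47.1%, 51.1% and 58.4% and 3′ UTRs 45.7%, 40.8% and 33.8% of FUBP3 clusters, and introns 68.6% of CPSF1 clusters.

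With at least 50 reads in all 6 libraries, 2 ribosomal protein genes remained, 0 higher for FUBP3 and 2 for KHSRP, beside 13.6% and 60.1% of 789 genes. Median-of-ratios scaling gave 1 and 8 of 14 (28.5% and 27.6% of all genes), and distinct sequences 1 and 8 (32.2% and 27.7%). RPL34, mixed over doses, turned to 0.093 with distinct sequences, and RPL37A averaged -2.44 inside its span against -1.57. Dropping RPS14 and this span restriction were added after the data were seen. Depth limits the gel comparison, where 11 of 83 genes could be tested, and that between FUBP3 and KHSRP, with 14. In the gel comparison the median over the ribosomal protein genes was 0.03 over 4 genes with the matched minimum.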

Other observations

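Introns of ribosomal protein genes host small nucleolar RNAs, which guide the modification of ribosomal RNA, and U2AF1 reads touched both. At 1.5 U/ml 45 further clusters with 1137 reads, and at 15 U/ml 26 with 545 reads, carried a ribosomal protein name joined to another name. Of these, 30 clusters with 846 reads and 24 with 497 reads included a small nucleolar RNA. The largest groups were RPL3 with SNORD83B (132 reads) and RPS13 with SNORD14A (128 reads).

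Pseudogenes named after these genes held 417 and 178 U2AF1 reads in 57 and 25 clusters, and 357, 218, 84 and 27 reads in the older AGO2 libraries. Most of the latter were from RPL13AP17, a copy of RPL13A, at 235 and 151 (no gel) and 67 and 27 (urea gel), more than RPL13A itself in each (110, 36, 21 and 10). Paralogs with names outside the rule were few, and RPL7L1 led them with 224 AGO2 reads, 323 FUBP3 reads and 97 KHSRP reads.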
